A study of Mus musculus with 6 samples.

Results

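The chemokine system of the mouse incisor was described through 38 genes, chosen by symbol alone from the 23718 genes of the deposited table: the genes listed under a numbered Ccl or Cxcl symbol or as Cx3cl1, the numbered CC and CXC chemokine receptors, the CX3C receptor and the atypical chemokine receptors Ackr1 to Ackr4. They comprised 21 ligands (13 CC, 7 CXC and 1 CX3C) and 17 receptors (7 CC, 5 CXC, 1 CX3C and 4 atypical). Chemokines are small secreted or membrane-tethered proteins that guide cells along gradients through G protein-coupled receptors. They are grouped by the spacing of their leading cysteines, and the atypical receptors bind chemokines without the usual G protein signal and so clear or shape the gradient. In adult tissues some, such as Cxcl12, are made constantly by stromal and perivascular cells and hold stem and blood-forming cells in place, whereas others, such as Ccl2, Ccl5 and Cxcl9, are known mainly from the recruitment of leukocytes.

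The study compared 2 neighbouring regions of the growing end of the incisor, the region of mesenchymal stem cells (MSC) and the region of their fast-dividing progeny, the transit-amplifying cells (TAC). RNA was sequenced from 3 libraries of each, taken by laser capture microdissection. MSC libraries came from Gli1-CreER;tdT mice and TAC libraries from Axin2-CreER;tdT mice, all labelled C57BL/6 (the methods speak of a mixed background) and 1 month old, in which tamoxifen given the day before let the Gli1- or Axin2-driven Cre switch on a red fluorescent reporter. According to the methods, each group had 3 mice. Every mouse carried the reporter and a Cre transgene and received tamoxifen, and the 2 drivers differ exactly as the regions do, so driver and region cannot be told apart. The captured tissue held whatever cells lay within the cut, and in such bulk samples fewer cells of a type and less RNA per cell cannot be told apart.

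The third replicates stood apart from the rest. Estimated totals ranged from 20203159 to 25567244 reads for replicates 1 and 2 of both groups, while the third MSC library had 59793645 and the third TAC library 108156380. Even so, 43.1% and 28.3% of listed genes had no read in these 2 deep libraries, against 6.89% to 8.36% in the other 4. Log2 values correlated across genes at 0.980 between MSC replicates 1 and 2 but at 0.660 between MSC replicates 1 and 3. Results are therefore also given for replicates 1 and 2 and for replicate 3. Of 10 incisor mesenchyme genes, 9 had a read in every library and Barx1 had none in MSC replicate 3. Gli1 (256, 245 and 422 in MSC, 153, 141 and 396 in TAC) and Axin2 (58.3, 48.0 and 12.01 in MSC, 56.8, 63.9 and 34.1 in TAC) overlapped between the groups, while 6 of 6 proliferation markers passed an unadjusted p of 0.05 with higher values in TAC, 1 of them, Cdk1, also after adjustment, and Mki67 and Birc5 too when the replicate number was a block (adjusted p = 0.0442 and 0.0489).

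The coding sequences below show the cysteine spacing that defines the 3 ligand classes for the 6 ligands on which the results turn. Each run holds 60 bases of the GENCODE M21 transcript, 5′ to 3′, and capitals mark the first 2 cysteine codons of the mature chemokine fold. The CC ligands have adjacent codons, the CXC ligands have 1 codon between them, and the CX3C ligand has 3.
Cxcl12 (CXC): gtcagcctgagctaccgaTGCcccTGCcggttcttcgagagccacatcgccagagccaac
Cxcl14 (CXC): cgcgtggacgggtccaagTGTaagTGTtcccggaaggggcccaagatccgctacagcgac
Ccl27a (CC): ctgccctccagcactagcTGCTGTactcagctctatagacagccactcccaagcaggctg
Ccl2 (CC): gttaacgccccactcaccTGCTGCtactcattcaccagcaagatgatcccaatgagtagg
Ccl5 (CC): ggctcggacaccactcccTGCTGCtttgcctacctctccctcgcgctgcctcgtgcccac
Cx3cl1 (CX3C): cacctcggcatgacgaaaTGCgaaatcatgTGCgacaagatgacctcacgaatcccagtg

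Cxcl12 had the highest level of the chemokine system in each MSC library and was the only member, of the 17 that could be tested, to differ between the regions after adjustment over all genes, a call that 0.422% of all tested genes reached. Cxcl14 took the leading place in the TAC region. Cx3cl1 and Ccl5 had higher values in MSC at an unadjusted p alone, and most receptors had overlapping values. All values below are the deposited normalized values, which are proportional to reads per library and are not divided by gene length. A gene without a read has the value that 1 read is worth, and a read number of 0 allows a value of up to 3 reads, 0.0114 to 0.0869 depending on the library.

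Of the 38 genes, 17 had a mean value of at least 1 over the 6 libraries and entered the test, and 21 lay below that level. Among the 17, 12 reached a mean of 1 in both groups, 4 in MSC only and 1 in TAC only, so the last 5 passed the filter through the group in which they were high. Only 10 members had a read in every library. At least 10 reads were found for 32 and 26 members in MSC replicates 1 and 2 and for 22 in each TAC library, but for 16 in MSC replicate 3, where 22 members had no read at all. The map of estimated reads shows this loss to run through the CC ligands and the receptors.

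**Figure D1:**
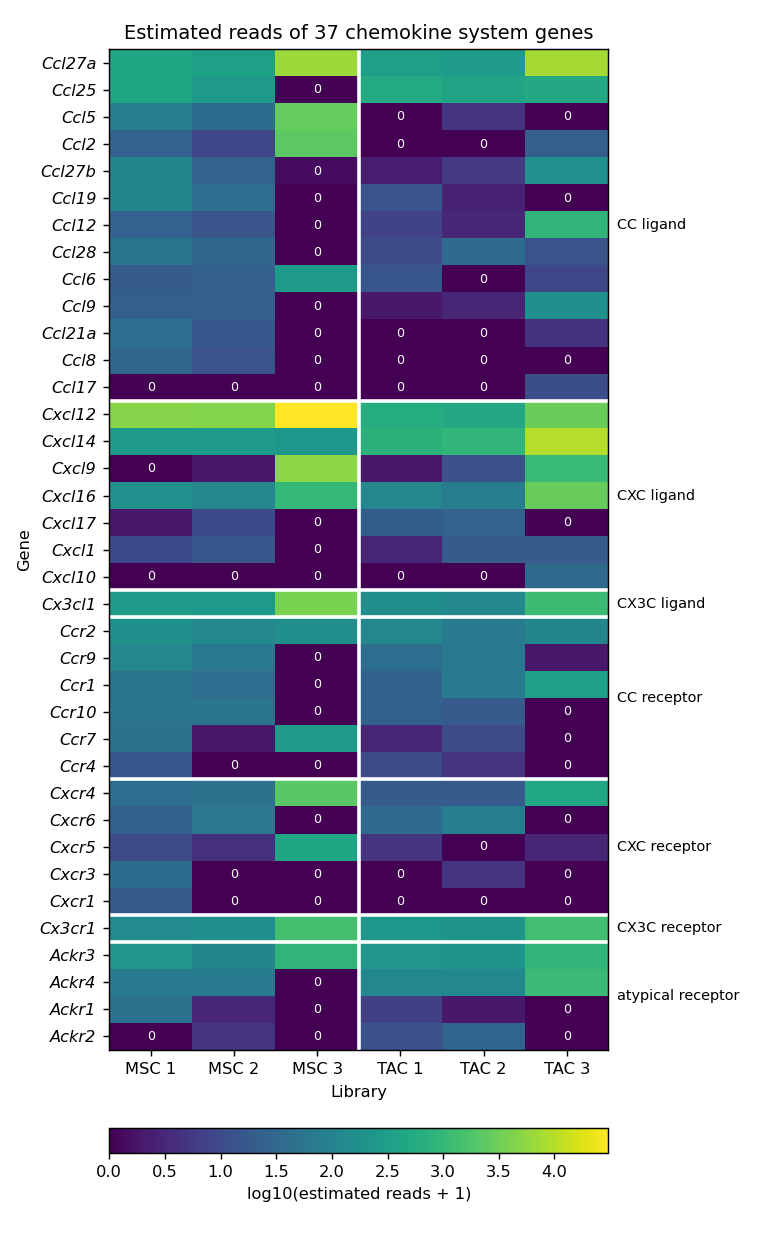
Colour gives log10(estimated reads + 1) for 37 of the 38 genes (rows, grouped by subfamily and ordered by mean value) in each of the 6 libraries (columns), and a printed 0 marks a library whose estimate rounds to no read. MSC replicate 3 has no read for 22 genes, yet holds the brightest cell of the map, the 30492 reads of Cxcl12.

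Cxcl12 (chr6:117168535-117181367, plus strand, mm10) encodes the stromal ligand of Cxcr4 and Ackr3, a retention signal for stem and blood-forming cells. Its values were 125, 129 and 203 in MSC and 13.0, 12.3 and 11.6 in TAC. Every MSC library was far above every TAC library, and the TAC libraries lay close together. The means were 152 ± 43.8 and 12.3 ± 0.705 (SD, n = 3 each), a ratio of 12.4. On the scale of log2(value + 1), the difference of TAC minus MSC was -3.49 with an SE of 0.29, and the adjusted p from limma was 0.00876. Within replicates 1 and 2 the difference was -3.23, and within replicate 3 it was -4.02. The adjusted p rose to between 0.0665 and 0.0825 when any single library of replicate 1 or 2, in either group, was left out, fits in which none of the genes in the whole table passed. In each of those 4 fits the log2 difference of Cxcl12 was still between -3.62 and -3.50.

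Measured per kilobase of exon, which allows levels of different genes to be compared, Cxcl12 had the highest level of all members in each MSC library, at 15.3, 15.8 and 24.8. In the TAC libraries its level per kilobase was 1.59, 1.51 and 1.42, and Cxcl14 led in each of them, at 9.22, 11.7 and 20.2. Its share of the summed level per kilobase of the 38 genes was 26.6%, 36.1% and 22.2% in MSC and 6.51%, 5.52% and 2.67% in TAC. Of the summed values that are not divided by length, in which this gene of long exons weighs more, it made up 58.5%, 65.1% and 52.4% in MSC and 16.8%, 15.2% and 9.37% in TAC. The sum of undivided values was 214, 198 and 387 in MSC and 77.5, 81.1 and 123 in TAC. Without Cxcl12, the sum of the other 37 genes was 88.8, 69.2 and 184 in MSC and 64.5, 68.8 and 112 in TAC, and the groups overlapped. The 17 receptors summed to 30.0, 23.9 and 36.0 in MSC and to 20.04, 22.5 and 20.4 in TAC.

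**Figure D2:**
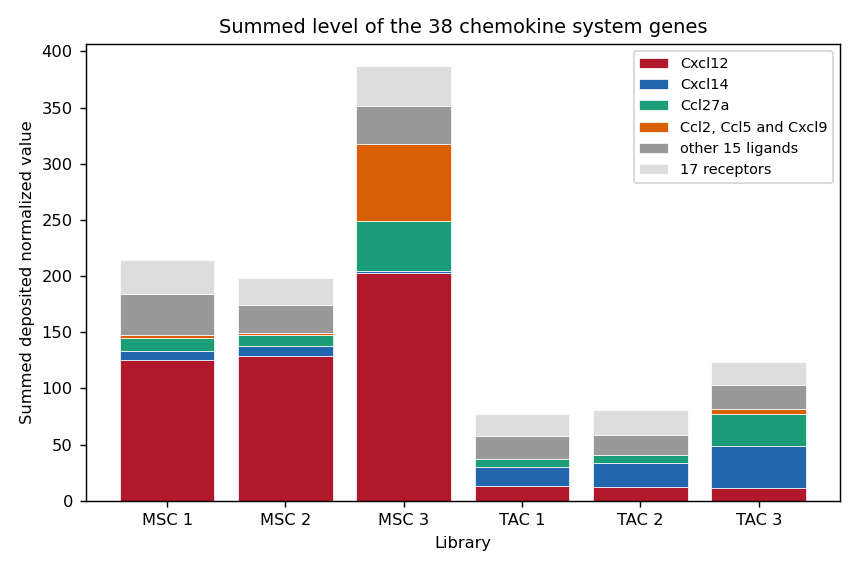
Stacked bars give the summed deposited normalized value of the 38 genes in each library, split into Cxcl12, Cxcl14, Ccl27a, the sum of Ccl2, Ccl5 and Cxcl9, the other 15 ligands and the 17 receptors. The values are not divided by length. Cxcl12 fills 52.4% to 65.1% of each MSC bar (22.2% to 36.1% of the sum per kilobase), and the part of Ccl2, Ccl5 and Cxcl9 is visible mainly in MSC replicate 3, where it reaches 68.7.

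The 250 bases before the RefSeq start of Cxcl12 (chr6:117168285-117168534, plus strand, GRCm38.p6) are shown because this gene carried the strongest contrast. Capitals mark the matches on either strand to the GC box GGGCGG and to the TCF motif CTTTGAT, the letters read by the effectors of Wnt signaling, the pathway in which Axin2 is a target gene. The window held 5 GC boxes, the last 2 of which share a base, and 1 TCF motif. It held no GLI motif GACCACCCA, no NF-kB motif (GGGA, any base, then TTTCC) and no TATAAA.
Cxcl12 promoter: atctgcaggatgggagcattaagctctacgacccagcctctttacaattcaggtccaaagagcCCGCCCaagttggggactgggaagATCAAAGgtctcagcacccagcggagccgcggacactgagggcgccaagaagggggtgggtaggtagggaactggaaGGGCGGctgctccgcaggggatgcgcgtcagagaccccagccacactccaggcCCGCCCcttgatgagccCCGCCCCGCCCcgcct
Its GC content was 64.4%. Among all 32851 RefSeq promoter windows of this length, 32.7% held a GC box, 3.21% the TCF motif, 0.225% the GLI motif, 0.356% the NF-kB motif and 12.4% TATAAA. Promoter windows were found for 30 of the 38 members, 36 windows in all, of which 7 held a GC box, 1 the TCF motif, 0 the GLI motif, 1 the NF-kB motif and 10 TATAAA. A match of letters is a description of the sequence and says nothing of binding.

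The receptors of Cxcl12 had values that overlapped between the groups. Cxcr4, the signaling receptor through which Cxcl12 attracts cells, had values of 1.12, 1.39 and 14.3 in MSC and 0.438, 0.456 and 1.87 in TAC. TAC replicate 3 lay above MSC replicates 1 and 2, so the groups overlapped, and MSC replicate 3 stood far above all others. The MSC value exceeded the TAC value of the same number each time. The log2 difference was -1.23 with an SE of 0.86 (limma adjusted p = 0.643), -0.64 within replicates 1 and 2 and -2.42 within replicate 3. It was -0.31 without MSC replicate 3. With the library set (replicates 1 and 2, or 3) as a covariate, the limma unadjusted p of Cxcr4 was 0.0322 and the adjusted p 0.132. In that fit 29.6% of all genes passed the unadjusted threshold. Ackr3, the atypical receptor that removes Cxcl12, had values of 5.89, 3.22 and 5.62 in MSC and 4.84, 5.11 and 3.23 in TAC. These ranges nearly coincided, and the log2 difference was -0.12 with an SE of 0.49 (limma adjusted p = 0.965), with a sign that turned in 4 alternative settings.

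Cxcl14 (chr13:56288647-56296551, minus strand), a homeostatic ligand of epithelia and mesenchyme, ran the other way. Its values were 8.07, 8.58 and 1.66 in MSC and 16.8, 21.3 and 36.8 in TAC. Each TAC library was above each MSC library, and replicate 3 supplied both the lowest and the highest value. Means were 6.10 ± 3.86 and 24.99 ± 10.5 (SD, n = 3 each). The log2 difference was 2.01 with an SE of 0.61, an unadjusted p of 0.0123 and a limma adjusted p of 0.254. It was 1.10 within replicates 1 and 2 and 3.83 within replicate 3.

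Cx3cl1 (chr8:94772009-94782427, plus strand) encodes the membrane-bound ligand also called fractalkine, made by endothelial and other tissue cells. Its values were 8.13, 7.68 and 24.9 in MSC and 3.59, 3.09 and 4.47 in TAC. The groups did not overlap, and replicates 1 and 2 of each group lay close together. TAC minus MSC came to -1.44 on the log2 scale with an SE of 0.56 (limma unadjusted p = 0.0364, adjusted p = 0.377), -1.04 within replicates 1 and 2 and -2.25 within replicate 3. Its receptor Cx3cr1, carried by macrophages and monocytes, had 3.94, 4.93 and 9.52 in MSC and 5.04, 5.04 and 5.17 in TAC. The TAC values fell inside the MSC range, with a log2 difference of -0.15 and an SE of 0.49 (limma adjusted p = 0.950).

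Ccl5 (chr11:83525778-83530518, minus strand), an attractant of T cells and monocytes, was almost absent from TAC. Its values were 2.29, 1.10 and 17.7 in MSC, from 85, 37 and 2660 estimated reads, and 0.0219, 0.120 and 0.00379 in TAC, from 0, 4 and 0 reads. All MSC libraries were above all TAC libraries, and MSC replicate 3 was far above the other 2. The log2 difference was -2.27 with an SE of 0.85 (limma unadjusted p = 0.0306, adjusted p = 0.352), -1.30 within replicates 1 and 2 and -4.22 within replicate 3. With TAC this close to 0, the added 1 sets much of the size of this difference: with 5 added it was -0.99 (limma unadjusted p = 0.0697), and with quantile scaling -1.72 (unadjusted p = 0.0964), neither past the threshold.

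Ccl2, the main attractant of monocytes, had values of 0.693, 0.261 and 15.2 in MSC, from 25, 8 and 2285 reads, and 0.0219, 0.0240 and 0.0834 in TAC, from 0, 0 and 21 reads. The groups did not overlap, but MSC replicate 3 held nearly all of the signal. Here TAC minus MSC was -1.64 on the log2 scale with an SE of 0.97 (limma adjusted p = 0.571), -0.51 within replicates 1 and 2 and -3.90 within replicate 3. Its receptor Ccr2, the monocyte receptor, had 4.78, 3.71 and 1.12 in MSC and 2.63, 1.63 and 0.428 in TAC. In this gene MSC replicate 3 was the lowest of its group and the groups overlapped, with a log2 difference of -0.70 and an SE of 0.64 (limma adjusted p = 0.729). It was -0.32 without TAC replicate 3 and -1.13 without MSC replicate 3.

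Cxcl9, an interferon-induced ligand for T cells chosen for mention after its values were seen, was the extreme case. It had 0.0266, 0.0580 and 35.7 in MSC and 0.0438, 0.312 and 3.94 in TAC. Only replicate 3 of each group had a value above 1, and 5367 reads were counted in MSC replicate 3 against 0 and 1 in the other MSC libraries. The log2 difference was -0.85 with an SE of 1.45 (limma adjusted p = 0.886). It was 0.17 within replicates 1 and 2 and -2.89 within replicate 3, opposite signs.

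**Figure D3:**
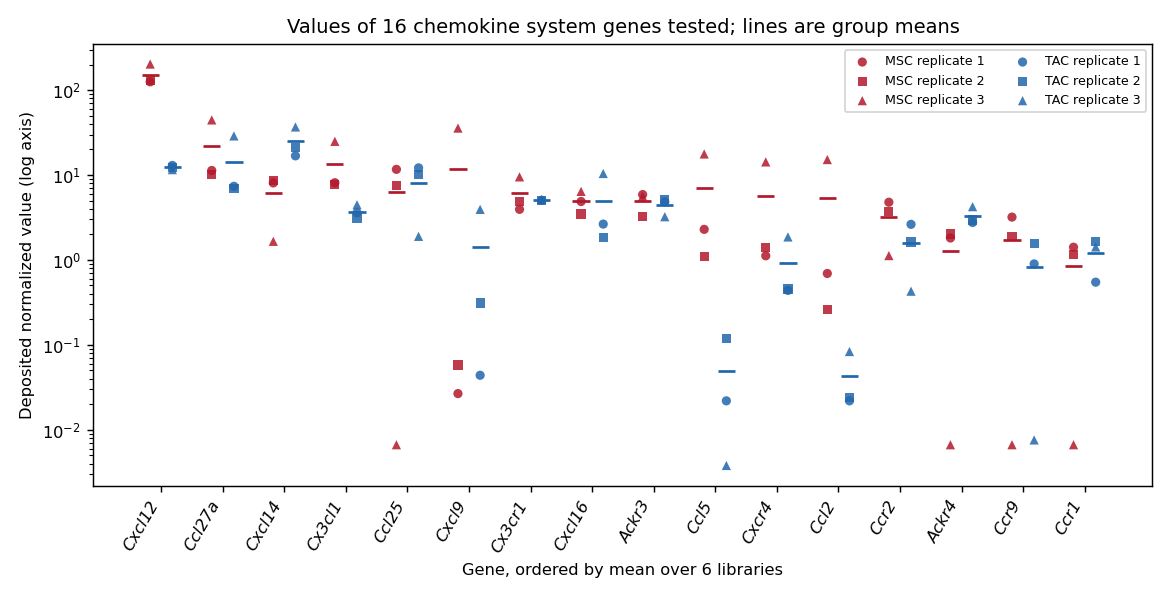
Points give the deposited normalized value (log axis) of 16 of the 17 tested genes in each library, red for MSC and blue for TAC, with a circle, square and triangle for replicates 1, 2 and 3 and a line at each group mean. Cxcl12 is separated by a wide gap, and for Cxcl9, Ccl2, Ccl5 and Cxcr4 the MSC mean is set by the triangle of replicate 3.

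Cxcl16, a membrane-bound ligand that also acts as a scavenger receptor, had values of 4.88, 3.48 and 6.42 in MSC and 2.65, 1.82 and 10.4 in TAC. TAC values were lower in replicates 1 and 2 and higher in replicate 3, with a log2 difference of -0.24 and an SE of 0.66 (limma adjusted p = 0.937). Zmynd15, on the opposite strand, covers 18.3% of its exon bases, and reads of overlapping genes cannot be told apart without strand. Its receptor Cxcr6, known from T cells, had 0.666, 1.74 and 0.00666 in MSC and 0.810, 1.798 and 0.00379 in TAC, with no read in replicate 3 of either group and so below the tested level.

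The ligands and receptor that draw dendritic cells and T cells to lymph nodes were sparse. Ccl19 had values of 3.07, 1.19 and 0.00666 in MSC and 0.329, 0.0618 and 0.00379 in TAC. Ccl21a had 1.14, 0.501 and 0.00666 in MSC and 0.0219, 0.0240 and 0.0169 in TAC. Both were higher in MSC than in TAC in replicates 1 and 2 and were without a read in MSC replicate 3. Their shared receptor Ccr7 had 1.33, 0.0580 and 1.94 in MSC and 0.0657, 0.264 and 0.00379 in TAC, overlapping ranges. All 3 lay below the tested level, and near-identical gene copies exist for Ccl19 and Ccl21a, so their counts are uncertain.

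Among the other atypical receptors, Ackr4, which scavenges Ccl19, Ccl21 and Ccl25, had values of 1.81, 2.02 and 0.00666 in MSC and 2.76, 2.96 and 4.24 in TAC. Every TAC value exceeded every MSC value, but MSC replicate 3 had no read, and the log2 difference of 1.06 with an SE of 0.61 did not pass (limma adjusted p = 0.563). It was 0.40 within replicates 1 and 2. Ackr1, the receptor of venules that binds inflammatory chemokines, had 1.26, 0.0869 and 0.00666 in MSC and 0.153, 0.0480 and 0.00379 in TAC. Ackr2, a scavenger of CC ligands in lymphatic vessels, had 0.0266, 0.145 and 0.00666 in MSC and 0.285, 0.695 and 0.00379 in TAC. Both were near 0 in most libraries and were not tested, and Ackr1 shares 25.7% of its exon bases with Cadm3 on the same strand.

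The other tested CC ligands and receptors had overlapping groups. Ccl27a, a skin-type ligand with near-identical copies, had values of 11.3, 10.2 and 44.6 in MSC and 7.37, 6.996 and 28.9 in TAC. Replicate 3 was high in both groups, the MSC value exceeded the TAC value of the same number each time, and the log2 difference was -0.55 with an SE of 0.74 (limma adjusted p = 0.839). Ccl25, the ligand of Ccr9 in thymus and gut, had 11.7, 7.52 and 0.00666 in MSC and 12.2, 10.2 and 1.90 in TAC, so that the 1 library without a read decided its difference of 0.66. Ccr9 and Ccr1, receptors of leukocytes, ranged from 0.00666 to 3.20 and from 0.00666 to 1.41 in MSC and from 0.00758 to 1.56 and from 0.547 to 1.65 in TAC, with log2 differences of -0.44 and 0.31. The difference of Ccr9 was -0.066 without TAC replicate 3 and -1.04 without MSC replicate 3.

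Among the members below the tested level that have not been given yet, every value of the CC ligands was under 4. Ccl12 reached 3.19 in TAC replicate 3, from 841 reads, against at most 0.693 elsewhere. Ccl27b reached 2.98 and Ccl28 1.47 in MSC replicate 1, Ccl6 reached 1.88 in MSC replicate 3, and Ccl8, Ccl9 and Ccl17 had highest values of 0.799, 0.695 and 0.0455. The CXC ligands Cxcl1, Cxcl10 and Cxcl17 peaked at 0.464, 0.136 and 0.647. Among receptors, Ccr10 reached 1.54, Ccr4 0.426, Cxcr1 0.533 and Cxcr3 1.04, all in MSC replicate 1 or 2, and Cxcr5 reached 2.95 in MSC replicate 3, from 442 reads. Of all 21 members below the tested level, 9 had their highest value in MSC replicate 1, none in TAC replicate 1 and 3 in each other library. At low read numbers the highest value also depends on what 1 read is worth, 0.00379 to 0.0290 by library. Of these 21, 2 (Ccl6 and Cxcr5) did not overlap between the groups, with higher values in MSC, against 2.25% of the 8327 genes below that level. For Cxcr5 the gap was between 0.116 in MSC replicate 2, from 3 reads, and 0.110 in TAC replicate 1, from 4 reads.

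Counted over the 17 tested members, 1 (Cxcl12) passed an adjusted p of 0.05 in the limma fit, or 5.88%, against 0.422% of the 15391 genes tested. At an unadjusted p of 0.05, 3 had higher values in MSC (Cxcl12, Ccl5 and Cx3cl1), or 17.6%, against 6.43% of all genes, and 1 in TAC (Cxcl14), or 5.88%, against 5.42%. The MSC count fell to 1 without TAC replicate 1, 2 or 3, each left out in turn, when 4.14%, 4.06% and 6.73% of all genes passed that way. The TAC count fell to 0 without TAC replicate 3, when 12.3% of all genes passed in either direction. Groups did not overlap for 4 members with higher values in MSC (the same 3 genes and Ccl2), or 23.5%, against 12.2% of all genes, and for 2 with higher values in TAC (Cxcl14 and Ackr4), or 11.8%, against 12.3%. Ccl2, Ccl5, Ccr9 and Cxcr4 passed the filter only through MSC, and Ccr1 only through TAC. These shares and the directions that follow are therefore descriptive. The log2 difference was below 0 for 12 members and above 0 for 5, against 7472 and 7919 of all genes. Its median was -0.44, the value of Ccr9, against 0.026 over all genes. In 7 of the 17 the difference within replicates 1 and 2 and the difference within replicate 3 had opposite signs, as in 5965 of the 15391 genes. With replicates 1 and 2 alone, 6 of 14 tested members passed the adjusted p (Cxcl12, Cxcl14, Cx3cl1, Ccl19, Ccl27a and Ccr2), in a fit in which 47.4% of all tested genes did.

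**Figure D4:**
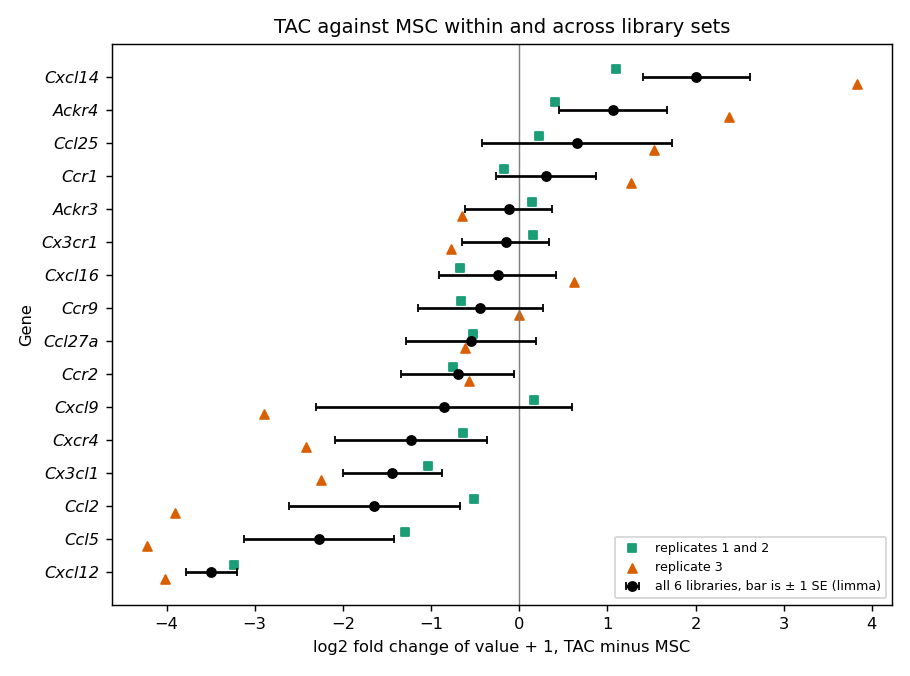
Black points give the log2 difference of value + 1, TAC minus MSC, for 16 of the 17 tested genes over all 6 libraries, with bars of ± 1 SE from limma. Green squares are replicates 1 and 2 and orange triangles replicate 3. Cxcl12 lies far left under each choice (-3.49, -3.23 and -4.02), whereas the squares of Ccl2, Ccl5 and Cxcl14 sit much nearer 0 than their triangles.

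Vascular and leukocyte markers moved with several of these results. The smooth muscle and pericyte list summed to 861, 868 and 1577 in MSC and 143, 141 and 110 in TAC, with 7 of 9 tested genes past the unadjusted threshold and 5 (Acta2, Myh11, Tagln, Rgs5 and Notch3) past the adjusted threshold, all with higher values in MSC. With the replicate block, Acta2 no longer passed adjustment (adjusted p = 0.0701) and Cspg4 did (adjusted p = 0.0442). Des, a muscle filament gene of that list, was near 0. The endothelial list summed to 279, 277 and 295 in MSC and 118, 114 and 104 in TAC, with 4 of 8 genes past the unadjusted threshold (Pecam1, Cdh5, Vwf and Cldn5), of which Vwf and Cldn5 passed adjustment with the block (adjusted p = 0.0323 and 0.0491). Kdr, Tek and Emcn overlapped between the groups, and Kdr had a log2 difference of 0.0015. The sums of these lists, like Cxcl12 and Cx3cl1, were higher in every MSC library than in every TAC library. Their part in those results was not tested. Among lymphatic endothelial genes, Prox1 and Flt4 had higher values in MSC at the unadjusted threshold, 2 of 4, while Pdpn and Lyve1 had log2 differences of 1.05 and 0.20, and the list summed to 25.7 to 40.4 in MSC and 15.5 to 19.49 in TAC. Prox1 (mean 2.14 in MSC, 0.171 in TAC) entered the test only through MSC.

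The pan-leukocyte, macrophage and T and NK cell lists were highest in MSC replicate 3 and, within each replicate number, higher in MSC than in TAC. The neutrophil list, with sums of 4.45, 3.27 and 0.0466 in MSC, and the mast cell list, with 14.6, 19.9 and 8.83, were lowest within MSC in that library. Pan-leukocyte genes summed to 30.9, 36.8 and 103 in MSC and 14.1, 19.4 and 47.2 in TAC, so that the groups overlapped, and 2 of 7 (Ptprc and Laptm5) passed the unadjusted threshold. Macrophage and monocyte genes summed to 142, 119 and 288 in MSC and 63.8, 64.1 and 144 in TAC, with 1 of 11 (Mrc1, a scavenger receptor) past it. With the replicate block, Lyz2, Csf1r, C1qc, Itgam and Cd163 also passed it with higher values in MSC (limma unadjusted p 0.00365 to 0.0497). In that fit 20.4% of all genes passed. T and NK cell genes summed to 7.38, 8.40 and 32.2 in MSC and 2.41, 2.18 and 4.58 in TAC. Of these, 1 of 3 (Cd4) passed the unadjusted threshold, and it entered the test only through MSC (mean 4.95 against 0.813 in TAC). In MSC replicate 3 the sum rested on Cd3g (14.9), Lck (8.79) and Cd4 (8.50). Cd3e, Cd3d, Cd2, Cd8a, Trac, Nkg7 and Il7r had no read there. Nor had the pan-leukocyte gene Tyrobp or the macrophage gene Adgre1, and Cd163 was lowest within MSC there, at 1.06. MSC replicate 3 was the highest library for 11 of the 38 members (Ccl2, Ccl5, Ccl6, Ccl27a, Ccr7, Cx3cl1, Cx3cr1, Cxcl9, Cxcl12, Cxcr4 and Cxcr5). MSC replicate 1 was highest for 12, MSC replicate 2 for 3, and TAC replicates 1, 2 and 3 for 1, 4 and 7. Shares over all genes were not counted. In MSC replicate 3, 10 of the 17 receptors had no read, among them the leukocyte receptors Ccr1, Ccr9, Cxcr3 and Cxcr6, and Ccr2 was lowest within MSC. The part of leukocyte content in these values was not tested.

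**Figure D5:**
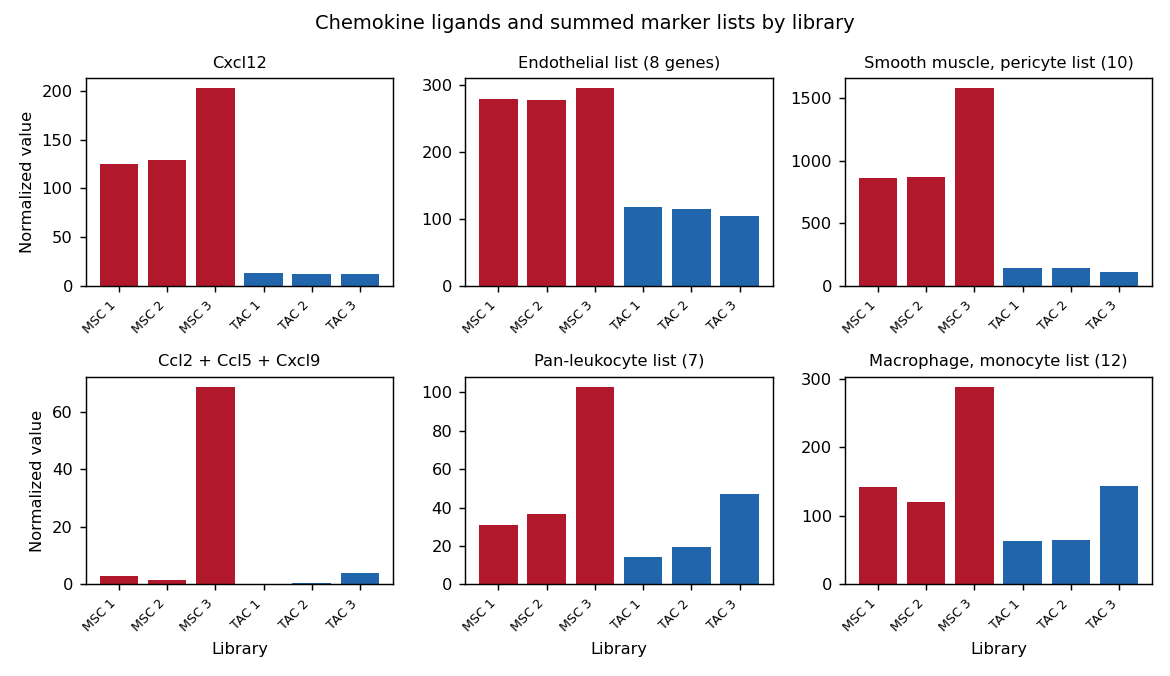
Bars from 0 give, per library, the deposited normalized value of Cxcl12, the sum of Ccl2, Ccl5 and Cxcl9, and the summed values of the endothelial, smooth muscle and pericyte, pan-leukocyte and macrophage and monocyte lists, red for MSC and blue for TAC. The endothelial sums (277 to 295 against 104 to 118) split the groups as Cxcl12 does, and the ligand sum in the lower row peaks in MSC replicate 3 together with both leukocyte lists.

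The remaining marker lists were counted at the same unadjusted threshold. None of the tested B cell (1), neutrophil (1), erythroid (5) or odontoblast (6) genes passed. The other lists had 1 of 2 mast cell genes (Tpsb2), 1 of 4 osteoclast genes (Mmp9) and 1 of 6 Schwann cell genes (Sox10) with higher values in MSC, and 1 of 3 platelet genes (Gp1bb) and 1 of 9 dental epithelium genes (Epcam) with higher values in TAC. The platelet genes Pf4, also a pathway gene counted below, and Itga2b were higher in every MSC library, at log2 differences of -0.86 and -1.32, without passing. Tpsb2 (mean 2.02 in MSC, 0.0384 in TAC), Sox10 (4.30, 0.206) and Epcam (0.720, 4.32) entered the test only through their higher group. Of 10 incisor mesenchyme genes, Pax9 and Prrx1 had higher values in MSC and Msx2 in TAC, and Pax9 passed adjustment with the block (adjusted p = 0.0442). The epithelial list summed to 300 in MSC replicate 3 against 2152 to 3663 elsewhere, and the odontoblast list to 2364 against 12495 to 15983. These sums rest on the enamel genes Amelx, Ambn and Enam and on Dspp and Col1a1, whereas the epithelial keratins Krt14 (16.0) and Krt5 (15.0) and the bone matrix gene Bglap (279) had their highest MSC values in that library. Cxcl14 and Ackr4, known from epithelia among other tissues, had their lowest values in MSC replicate 3 as well. The part of epithelial content in those values was not tested.

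The wider chemokine pathway was followed through 104 further genes by role, 90 of them listed and 81 tested. None passed the adjusted threshold in the limma fit, and 12, or 14.8%, passed an unadjusted p of 0.05, against 11.9% of all genes. With the replicate number as a block the count was 24, in a fit in which 20.4% of all genes passed, and Arrb1 then also passed adjustment (adjusted p = 0.0432). It was 7 without TAC replicate 1 or TAC replicate 2, when 6.75% and 6.7% of all genes passed, and 19 without MSC replicate 3, when 20% of all genes passed. Genes of the system under other symbols gave 2 of 7, Rarres2, the precursor of the attractant chemerin (14.2, 9.26 and 39.7 in MSC, 1.43, 1.58 and 3.01 in TAC), and its receptor Cmklr1 (8.45, 8.64 and 8.39 in MSC, 2.93, 1.15 and 3.45 in TAC). Ligand and receptor both had higher values in every MSC library, with log2 differences of -2.66 (SE 0.62) and -1.50 (SE 0.50).

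Downstream of the receptors, 3 of 13 G protein subunit genes (Gnai1, Gnai3 and Gng2) passed the unadjusted threshold with higher values in TAC and log2 differences of 0.90, 0.80 and 1.56. Of 10 receptor desensitization genes, Arrb1, the arrestin that uncouples receptors, had 80.3, 80.1 and 50.5 in MSC and 229, 222 and 184 in TAC, a log2 difference of 1.60 with an SE of 0.30 (limma adjusted p = 0.0935, or 0.0432 with the replicate block). Among regulators that switch off G protein signals, Rgs3 and Rgs16 passed the unadjusted threshold with higher values in MSC, at log2 differences of -1.04 and -1.79, while Rgs2 (0.28) and Rgs10 (-0.40) did not pass. Of 17 effectors of migration only the GTPase gene Rac1 passed the unadjusted threshold (log2 difference 0.72), and none of 16 heparan sulfate carriers and enzymes, which hold chemokines on cell surfaces, did.

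Of 5 chemokine-cleaving proteases, Mmp9 had 16.7, 18.1 and 21.3 in MSC and 4.99, 4.32 and 1.05 in TAC (log2 difference -2.28, SE 0.53). Of 13 upstream genes of the NF-kB and interferon responses, which induce inflammatory chemokines, the interleukin receptor Il1r1 (-1.54) and the NF-kB inhibitor Tnfaip3 (-1.70) passed the unadjusted threshold. Log2 differences were below 0 for 12 of the 13, with a median of -0.71. Over all 15391 genes tested, 7472 were below 0 and the median was 0.026. The pathway median was -0.23, with 46 genes below 0 and 35 above.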

How the data were processed

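According to the labels and methods, RNA of laser-captured tissue was sequenced as single 75-base reads and aligned to mm10. The submitters' processing notes name CASAVA 1.8.2, TopHat2 2.0.8 and Partek. The deposited signal is 1 table of normalized values: the values behave as estimated reads plus 1, divided by a size factor for each library, and not as RPKM, the unit that the methods name. Estimated reads were recovered as value over the library minimum, minus 1; 83.3% to 96.6% of low values (up to 19 reads) were whole within 0.1, so no count model was used. Strandedness of counting is not given in the sources used here. Totals per library measure depth, and intervals of counting error were not needed for replicated values.

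Values were analysed as log2(value + 1) with limma 3.58.1 (R 4.3.3, empirical Bayes with a variance trend), 3 TAC against 3 MSC libraries, two-sided, for 15391 genes with a mean of at least 1, with Benjamini-Hochberg adjustment over all of them. The script was tested on simulated data. p-values measure the spread between these libraries. A marker or pathway gene with a mean under 1 in 1 group entered the test only through the other group, as among the members. Replicate numbers of the labels were checked for pairing: deviations from group means of same-numbered libraries correlated at 0.4765, 0.4655 and 0.5171, and the methods mention sequencing pairs but not what their samples had in common, so a block on the number was fitted as an alternative. MSC replicate 1 and TAC replicate 2 correlated at 0.4616, so the shared deviation is largely that of the third replicates.

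The members, marker lists and pathway lists were chosen with earlier results of these data known. Values per library were given for members past an unadjusted p of 0.05, for members with non-overlapping groups and a mean of at least 10, and for fixed ligand-receptor sets and atypical receptors; others were given by range or highest value, except Ccl25, Ccl27a and Cxcl9, whose values per library are given by a choice made after they were seen. The values of 1 member are not reported here, though it is in the counts and sums. Pathway and marker genes were named where the unadjusted p was under 0.05 or where they define a list. Coding windows were read from GENCODE M21 transcripts and promoters from RefSeq (GRCm38.p6). Alternatives were another pseudocount (5), no filter, a mean of at least 10, median-ratio and quantile scaling, robust empirical Bayes, the block, the library set (replicates 1 and 2, or 3) as a covariate, replicates 1 and 2 alone and leaving out each library.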

Additional observations from a re-analysis of the deposited data

How the results depend on the processing

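Among 227 alternative values of the 17 members' log2 differences, 207 had the same direction and side of the adjusted threshold as reported. Cxcl12 kept its direction throughout (-3.62 to -3.15) and lost its adjusted call when a library of replicate 1 or 2, in either group, was left out (adjusted p 0.0665 to 0.0825). Leaving out 1 library at a time, the adjusted count ranged from 0 to 1, the unadjusted counts from 1 to 3 (MSC) and 0 to 1 (TAC), and the pathway count from 7 to 19. In those fits 4.06% to 11.4% of all genes passed the unadjusted p with higher values in MSC, and 6.7% to 20% in either direction. With replicates 1 and 2 alone, 6 members passed adjustment, 7 members the unadjusted p with higher values in MSC, and 61 pathway genes. In that fit 47.4% of all genes passed adjustment, 53.3% the unadjusted p, and 29.2% the latter with higher values in MSC. With the library set as a covariate, the unadjusted MSC count was 5 (Cxcl12, Ccl5, Cx3cl1, Ccl27a and Cxcr4), when 15.4% of all genes passed that way. The pathway count was then 34, when 29.6% passed. With a mean of at least 10 the MSC count was 1, since fewer members were tested. Quantile scaling gave 2 in TAC, adding Ackr4. With 5 added or quantile scaling, Ccl5 lost its unadjusted call and the MSC count was 2. The replicate block gave a pathway count of 24, when 20.4% of all genes passed, and changed no member's call; among the listed genes it ended the adjusted call of Acta2 and gave one to Arrb1, Birc5, Cldn5, Cspg4, Mki67, Pax9 and Vwf. Differences changed sign for 6 of 17 members: Ackr3 under quantile scaling (0.00031), replicates 1 and 2 alone (0.15), without MSC replicate 1 (0.010) and without TAC replicate 3 (0.049); Cx3cr1 under quantile scaling (0.010), replicates 1 and 2 alone (0.16) and without MSC replicate 3 (0.17); Ccr1 with replicates 1 and 2 alone (-0.17) and without MSC replicate 3 (-0.086); Ccl25 (-0.47) and Ccl27a (0.10) without MSC replicate 3; and Cxcl16 without TAC replicate 2 (0.15). The leave-one-out ranges of these 6 were -0.34 to 0.049 for Ackr3, -0.47 to 1.36 for Ccl25, -1.17 to 0.10 for Ccl27a, -0.086 to 0.55 for Ccr1, -0.38 to 0.17 for Cx3cr1 and -0.85 to 0.15 for Cxcl16. The cause was not tested. For the 21 members below the filter, low read numbers limit any comparison.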
